A study of Rattus norvegicus with 6 samples.

Results

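This account covers 10 genes through which liver cells sense foreign chemicals, bile acids, sterols, fatty acids and reactive compounds: Nr1i2, Nr1i3, Nr1h4, Nr1h3, Nr0b2, Ppara, Rxra, Ahr, Nfe2l2 and Keap1. They were taken by gene symbol and not by any measured value, though with earlier results of these data known. All 10 were on the array, of 15284 gene symbols in all, and were read by 18 of its 61657 probes. Liver RNA was taken from 6 male Sprague-Dawley rats that were bought at 5 weeks of age. The 3 control rats were given corn oil and the other 3 were given bromodichloromethane at 200 mg/kg/day, with 1 array per animal. Bromodichloromethane is a trihalomethane, a by-product of the chlorination of drinking water. The labels give 9 weeks of dosing in the protocol and 28 days in the design text, and the conflict could not be settled, so the length of exposure is uncertain. They name no genetic change in either group.

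Nr1i2 encodes PXR and Nr1i3 encodes CAR, receptors that bind or respond to drugs and other foreign chemicals and switch on cytochromes P450, conjugating enzymes and transporters. Nr1h4 encodes the bile acid receptor FXR, Nr1h3 the oxysterol receptor LXR alpha, and Ppara the fatty acid receptor that drives fat oxidation. Nr0b2 encodes SHP, an orphan receptor without a DNA-binding domain that is itself a classical FXR target and represses bile acid synthesis. PXR, CAR, FXR, LXR and PPAR alpha bind DNA as partners of RXR alpha, the product of Rxra. The label of nuclear receptors does not hold for the last 3 genes. Ahr encodes a ligand-activated factor of the bHLH-PAS family, Nfe2l2 encodes the bZIP factor NRF2, and Keap1 encodes the adaptor that brings NRF2 to a ubiquitin ligase. Several of these proteins are controlled by ligand, by movement into the nucleus or by breakdown, so transcript level and activity are different quantities.

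RefSeq promoter sequence of the rat assembly GRCr8 was matched for 9 of the 10 genes and is shown for Rxra, the 1 gene that passed the test below, and for Nr1i2, a receptor with few CpG pairs whose groups also did not overlap. The 120 bases before the start of Rxra (chr3:31387772-31387891, plus strand) hold 23 CpG pairs, and the same stretch of Nr1i2 (chr11:75965597-75965716, plus strand) holds 2. Capitals mark the CpG pairs, and both sequences run 5′ to 3′ in the direction of the gene.
Rxra: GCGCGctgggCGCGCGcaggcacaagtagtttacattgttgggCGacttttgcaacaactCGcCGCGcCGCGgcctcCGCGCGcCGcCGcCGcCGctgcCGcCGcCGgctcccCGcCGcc
Nr1i2: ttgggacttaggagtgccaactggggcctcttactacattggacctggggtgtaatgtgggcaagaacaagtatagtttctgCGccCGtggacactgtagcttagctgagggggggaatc
Over the 250 bases before the start, GC content was 82.8% for Rxra, 76% for Ppara, 75.2% for Ahr and 69.2% for Nfe2l2, against a median of 51.2% over 33469 promoters. Nr1i2, Nr1h3, Nr0b2, Nr1i3 and Keap1 lay between 45.2% and 55.6%. The GC box GGGCGG, searched on both strands, was in 5 of the 9 promoters and in 30.5% of all promoters, with 6 matches before Nfe2l2. The nuclear receptor hexamer AGGTCA was in 0 of 9, against 14.1% of all promoters, and the antioxidant response element core TGACNNNGC in 0 of 9, against 10.1%. The xenobiotic response element core GCGTG, the letters bound by AHR with its partner ARNT, was in the windows of Nr0b2, Ppara and Keap1 and in 25.9% of all promoters. TGACCT, the hexamer read on the other strand, and the antioxidant core share the letters TGAC. These are matches of letters in a window and no measure of binding. For Nr1i3, Nr1h3, Ppara and Nfe2l2 the start used was not the outer end of the annotated gene.

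Levels below are log2 processed signals relative to the 75th percentile of the same array, so 0 is the level of a probe at that percentile. A level orders animals for 1 probe and does not rank genes, since probes differ in brightness. All 18 probes were well above background on all 6 arrays, and no non-control spot was saturated. The 75th percentile lay between 670.1 and 825 intensity units and 61.3% to 66.9% of probes were well above background. The 3 corn oil arrays and treated replicate 1 were on slide 1, and treated replicates 2 and 3 were on slide 2 in a separate scan. Hepatocyte markers were high in every animal, with a summed level, in multiples of the 75th percentile, of 4076 to 4410 in corn oil and 3467 to 3934 in treated livers over 8 of 8 markers. Of these 8, 2 were called lower, beside 3.41% of all features. The summed markers also did not overlap between the groups for 5 endothelial (52.6 to 53.6 against 44.1 to 46.3), 5 cholangiocyte (1.75 to 1.91 against 2.58 to 3.74), 6 neutrophil and monocyte (1.88 to 2.22 against 2.82 to 4.54), 8 lymphocyte (2.32 to 2.91 against 2.94 to 3.63) and 5 red cell genes (699.98 to 1053 against 462 to 665). They overlapped for 8 Kupffer cell and 9 stellate cell genes, and no marker was below background on every array. A sum mostly follows its brightest genes. Gene by gene, groups were separate for 3 of the 5 endothelial, 1 of the 5 cholangiocyte and 4 of the 6 neutrophil and monocyte genes. They were separate for 3 of the 8 lymphocyte and 4 of the 5 red cell genes, beside 34.4% of all features. In that order 1, 1, 0, 1 and 0 genes were called, beside 9.36% of all features. The part of these markers in the results below was not tested. In whole liver, fewer cells of a type and less RNA per cell cannot be told apart.

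Of the 10 genes, Rxra fell in the treated livers and the other 9 did not pass the test, an adjusted p under 0.05 in limma fitted over all 28995 features. Over all features, 9.36% passed in either direction, 5.96% higher and 3.41% lower. The 1 of 10 is therefore near the background share. Among features with a gene symbol 7.92% passed. Read probe by probe, 1 of the 18 probes passed, beside 8.52% of all probes. The estimated change was below 0 for 8 genes and above 0 for Ppara and Nfe2l2. The 3 treated animals lay below all 3 corn oil animals for 4 genes, Nr1i2, Nr1i3, Nr1h3 and Rxra, and above them for 0. Groups did not overlap for 34.4% of all features, 16% lower and 18.4% higher. The median change of the 10 genes was -0.26 on the log2 scale, beside 0.00135 over all features.

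**Figure D1:**
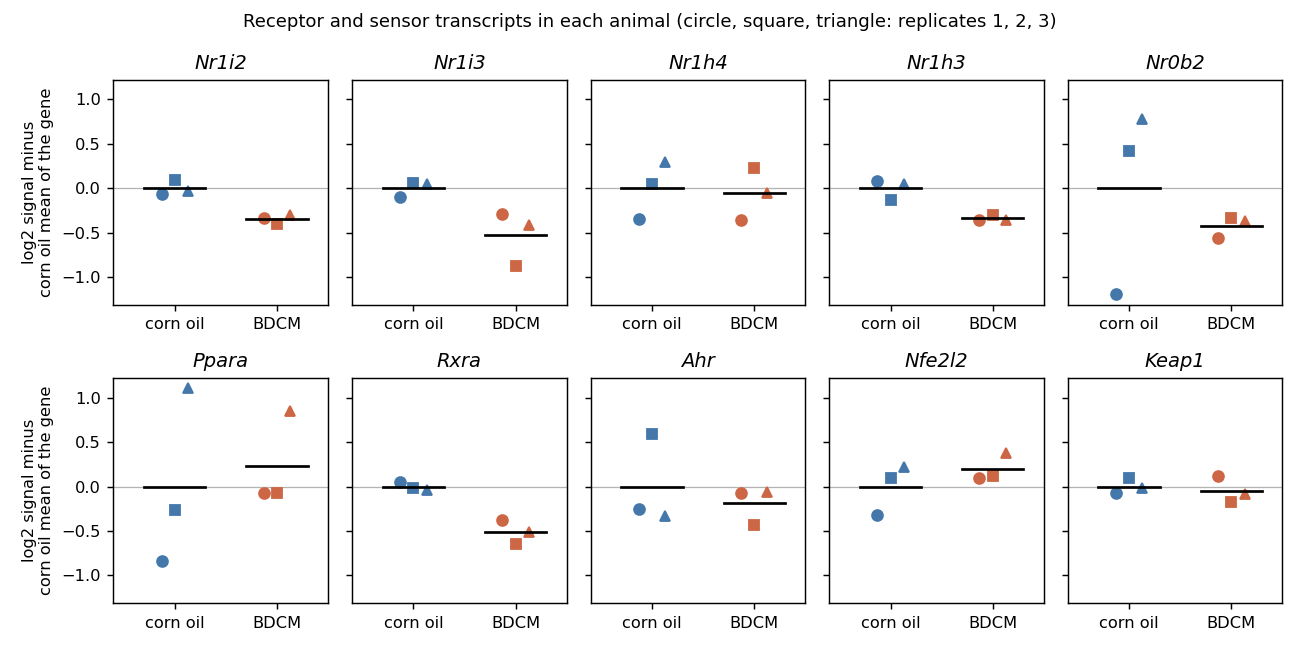
Log2 signal of each gene in each of the 6 livers, minus the mean of its 3 corn oil livers, with the group mean as a black line and circle, square and triangle for replicates 1, 2 and 3 (BDCM, bromodichloromethane). Treated animals sit below every corn oil animal for Nr1i2, Nr1i3, Nr1h3 and Rxra, and the corn oil animals of Nr0b2 and Ppara spread over 1.98 and 1.94 log2 units.

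Rxra, the shared partner of the lipid and drug receptors, had levels of 0.22, 0.15 and 0.13 in the corn oil livers and -0.21, -0.48 and -0.35 in the treated livers. Every treated animal was below every control, and the corn oil animals were within 0.085 log2 units of each other. The mean went from 0.17 ± 0.045 (SD, n = 3) to -0.35 ± 0.13 (SD, n = 3), a log2 change of -0.51 (SE 0.099, 95% interval -0.75 to -0.27), or 1.42-fold lower, with an adjusted p of 0.0325 in limma. Its 1 probe gives no second reading on the array. The call was kept without treated replicate 1 (limma, adjusted p 0.0465) and lost without any other animal, with an adjusted p of 0.0839, 0.0959 and 0.0747 when corn oil replicate 1, 2 or 3 was left out, and 0.105 or 0.0871 when treated replicate 2 or 3 was left out. On slide 1 alone, with 1 treated animal, the log2 change was -0.38. Slide as a fixed block (adjusted p 0.17) gives that same estimate by design, since slide 2 holds no control. Scaling to the spike-in probes gave -0.027 (adjusted p 0.87).

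The RXR family has 2 further members, both measured among the other nuclear receptors and chosen here after their values were seen. Rxrb had levels of 0.64, 0.68 and 0.73 in corn oil and 0.64, 0.63 and 0.68 in treated livers, a log2 change of -0.032 (SE 0.078, adjusted p 0.826). Rxrg had 3.51, 3.54 and 3.73 in corn oil and 4.11, 3.80 and 3.94 in treated livers, a log2 change of 0.36 (SE 0.12, adjusted p 0.108). The Rxrb groups overlapped and the Rxrg groups did not, with the treated animals higher. Differences between these genes were not tested. The 3 named genes whose levels followed Rxra most closely over the 6 arrays were Pde11a (Pearson r 0.997), Car9 (0.995) and Lce1e (0.994), each lower in the treated mean, by -1.41, -0.35 and -0.72 on the log2 scale. These arrays share 2 groups, so any gene that separates them in the same direction will score high.

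Both xenobiotic receptors were lower in every treated animal without passing the test. Nr1i2 had levels of 5.93, 6.09 and 5.96 in corn oil and 5.65, 5.59 and 5.69 in treated livers. Its means were 5.99 ± 0.086 and 5.64 ± 0.052 (SD, n = 3 each), a log2 change of -0.35 (SE 0.088, 95% interval -0.56 to -0.14, adjusted p 0.06). The spread between animals was small, with a residual SD at the 9.64th percentile of all features. A second Nr1i2 probe, on its own scale, had 4.10, 4.23 and 4.20 against 3.90, 3.84 and 3.99, again without overlap, with a change of -0.27 (adjusted p 0.118 in limma over every probe). With trend and robust options in eBayes the brighter probe passed (adjusted p 0.024).

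Nr1i3 had levels of 2.86, 3.02 and 3.00 in corn oil and 2.67, 2.08 and 2.55 in treated livers, and treated replicate 2 was the lowest of the 6. The log2 change was -0.52 (SE 0.17, 95% interval -0.93 to -0.12, adjusted p 0.104). Spread was wider among treated than among corn oil animals, with ranges of 0.59 and 0.16. The other 3 probes of Nr1i3 gave -0.50, -0.50 and -0.34, so all 4 probes pointed down, and the groups were separate for 2 of the 4. Without treated replicate 2 the change was -0.35 (adjusted p 0.177), and on slide 1 alone it was -0.29 (adjusted p 0.387).

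Among the lipid receptors, Nr1h3 was the gene with separate groups. It had levels of 5.39, 5.17 and 5.35 in corn oil and 4.95, 5.00 and 4.95 in treated livers. The treated animals lay within 0.053 log2 units of each other and all below the lowest control. The log2 change was -0.34 (SE 0.094, 95% interval -0.57 to -0.11, adjusted p 0.0765). It passed with quantile normalization (-0.38, adjusted p 0.0474) and with trend and robust options (adjusted p 0.0356).

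Nr1h4, the bile acid receptor, had levels of 4.53, 4.93 and 5.17 in corn oil and 4.52, 5.11 and 4.83 in treated livers. The groups overlapped almost fully, and the change was -0.059 (SE 0.21, 95% interval -0.58 to 0.46, adjusted p 0.89). Its other 2 probes gave -0.16 and -0.10. The interval still includes a fall as large as that of Rxra.

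Nr0b2, whose product SHP represses Cyp7a1, differed more between control animals than between groups. Its levels were 5.26, 6.87 and 7.24 in corn oil and 5.89, 6.12 and 6.09 in treated livers. Corn oil replicate 1 was the lowest of the 6 animals and corn oil replicates 2 and 3 the highest, with all treated animals between them. The SD was 1.05 among corn oil and 0.12 among treated livers (n = 3 each), and a test of the difference in spread was not made. The log2 change was -0.42 (SE 0.49, 95% interval -1.62 to 0.77, adjusted p 0.628). Without corn oil replicate 1 it was -1.02 and passed (adjusted p 0.0413), and without corn oil replicate 3 it was -0.032 (adjusted p 0.974), so the value was set by which control is counted.

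Ppara had the widest residual spread of the 10, at the 97.8th percentile of all features. Its levels were 0.078, 0.65 and 2.02 in corn oil and 0.84, 0.84 and 1.77 in treated livers, and replicate 3 was the highest of each group. The log2 change was 0.23 (SE 0.53, 95% interval -1.05 to 1.52, adjusted p 0.814). A second Ppara probe gave the same order of the corn oil animals, at -0.02, 0.48 and 1.96, beside 0.76, 0.84 and 1.68 in treated livers, with a change of 0.28. The estimate ran from -0.18 without corn oil replicate 1 to 0.79 without corn oil replicate 3, and was -0.073 on slide 1 alone.

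Genes of the circadian clock are set beside this spread, chosen after their values were seen. Nr1d1, the clock receptor REV-ERB alpha, had levels of 0.49, 0.76 and 1.79 in corn oil and 0.81, 0.30 and 0.95 in treated livers. Bmal1, a core clock activator, had 1.34, 1.16 and -0.014 in corn oil and 1.12, 1.27 and 0.87 in treated livers. Corn oil replicate 3 was the highest of the 6 for Ppara and Nr1d1 and the lowest for Bmal1. Npas2, a partner of Bmal1, had 0.28, -0.075 and -0.97 in corn oil and -0.53, -0.47 and -1.07 in treated livers. Replicate 3 was the lowest of each Npas2 group, and treated replicate 3 the lowest of the 6. Not all clock genes had this order. Nr1d2, the sister receptor of Nr1d1, had -2.65, -2.74 and -2.55 in corn oil and -3.28, -3.20 and -2.52 in treated livers, with treated replicate 3 the highest of the 6 and little spread among controls. The part of the clock in the spread of Ppara and Nr0b2 was not tested.

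**Figure D2:**
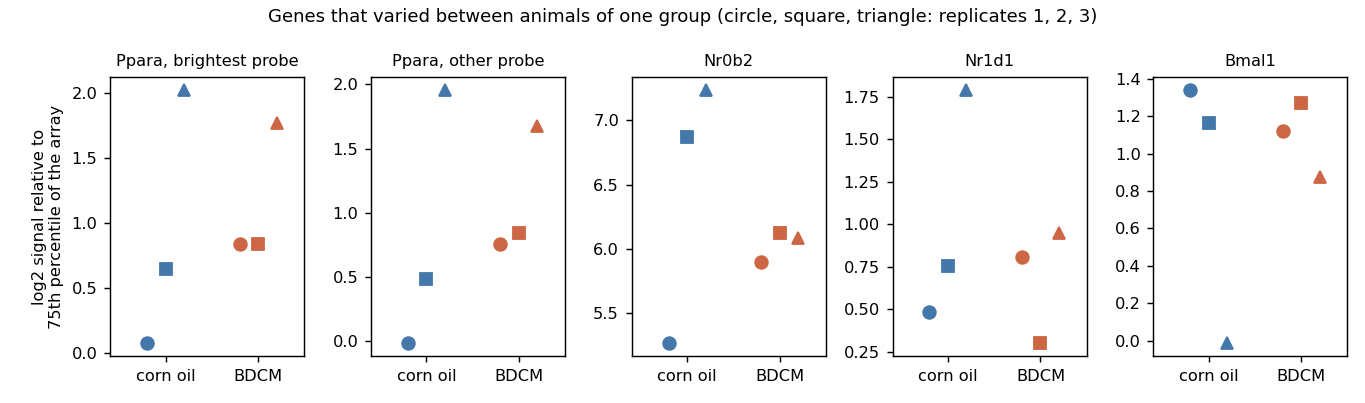
Log2 signal relative to the array's 75th percentile in each animal for both Ppara probes, Nr0b2, and the clock genes Nr1d1 and Bmal1, each panel on its own axis (circle, square, triangle: replicates 1, 2, 3; BDCM, bromodichloromethane). Corn oil replicate 3 is highest for Ppara, Nr0b2 and Nr1d1 and lowest for Bmal1.

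Ahr had levels of -2.38, -1.54 and -2.46 in corn oil and -2.20, -2.56 and -2.18 in treated livers. Corn oil replicate 2 stood above the other 5 animals, which lay close together. The log2 change was -0.19 (SE 0.27, 95% interval -0.83 to 0.45, adjusted p 0.69), and it was 0.10 without corn oil replicate 2 (adjusted p 0.733).

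Nfe2l2 had levels of 3.36, 3.77 and 3.90 in corn oil and 3.78, 3.80 and 4.05 in treated livers. All 3 treated animals were above corn oil replicates 1 and 2, but corn oil replicate 3 was above treated replicates 1 and 2. The log2 change was 0.20 (SE 0.17, 95% interval -0.20 to 0.60, adjusted p 0.49). A second probe gave 0.31 (adjusted p 0.318 in limma over every probe). Without corn oil replicate 1 the change was 0.038 (adjusted p 0.887).

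Keap1 had levels of 1.15, 1.32 and 1.22 in corn oil and 1.35, 1.05 and 1.15 in treated livers, with the groups interleaved. Its log2 change was -0.048 (SE 0.11, 95% interval -0.32 to 0.22, adjusted p 0.816). This is the narrowest interval among the 6 genes whose groups overlapped, and it excludes changes as large as that of Rxra in either direction on this scale.

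**Figure D3:**
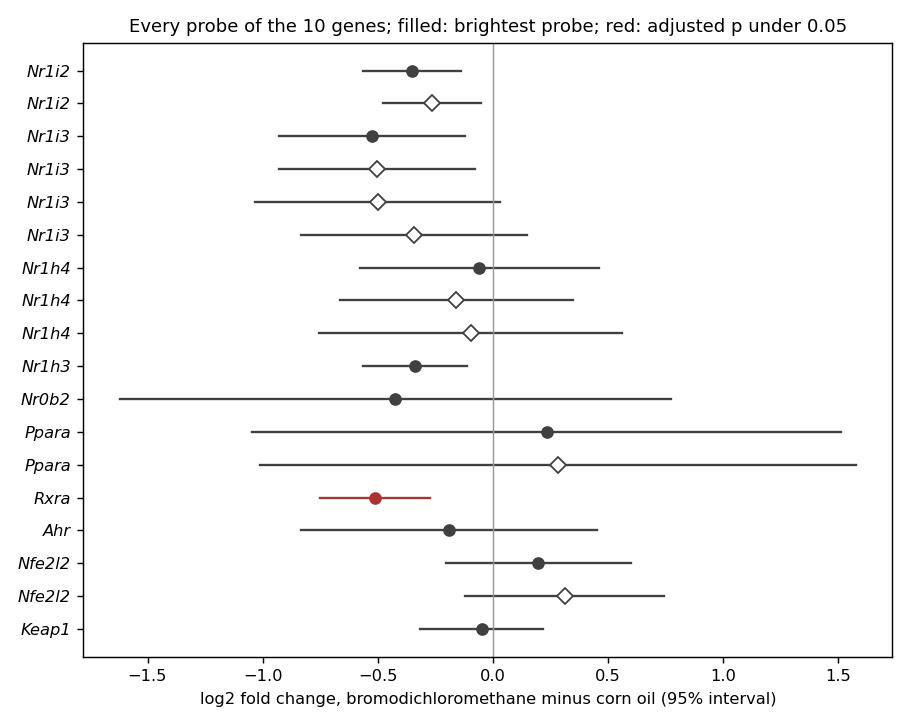
Log2 fold change, bromodichloromethane minus corn oil, of each of the 18 probes with its 95% interval from limma over every probe, 3 animals per group (filled circle, brightest probe of the gene; open diamond, other probes; red, adjusted p under 0.05). All probes of a gene point the same way for the 5 genes with several probes, and 1 probe, that of Rxra, passes.

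The direction of several of these changes depends on how arrays are put on one scale. With spike-in scaling the median of all features moved to 0.48, 8 of the 10 genes were above 0, and Nr1i3 (-0.041) and Rxra (-0.027) remained below. Nfe2l2 (0.68, adjusted p 0.0368) and Keap1 (0.44, adjusted p 0.0417) passed as higher on that scale. There 12996 of 28995 features passed, and 97.6% of them were higher, against 63.6% of those called on the 75th percentile scale. The shift of all features is part of both values. Nr1i2, Nr1i3, Nr1h3, Nr0b2 and Rxra were below 0 with normexp, quantile normalization, median centring and slide 1 alone.

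**Figure D4:**
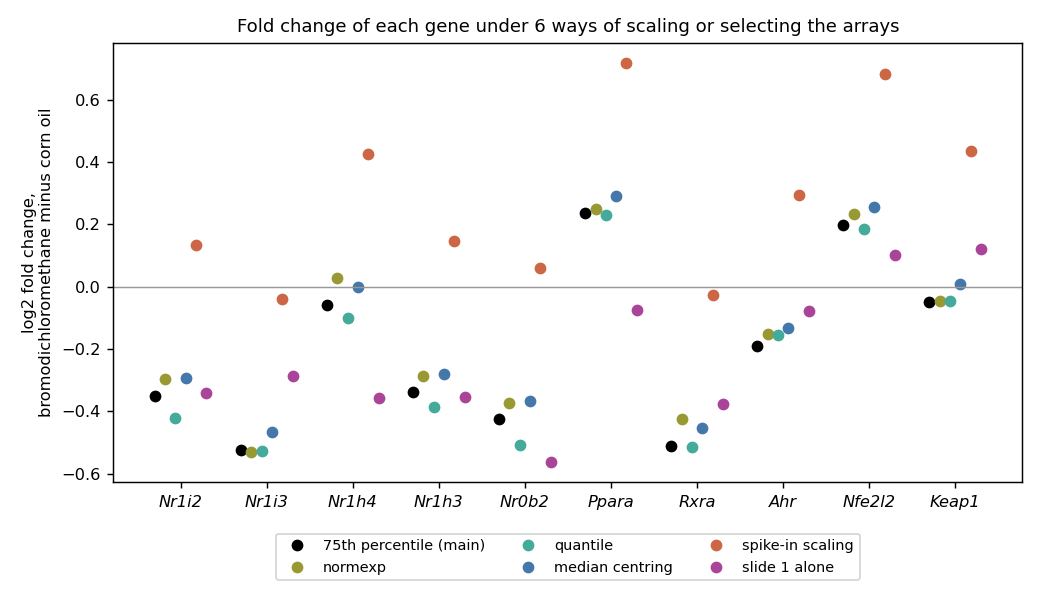
Log2 fold change of each gene, bromodichloromethane minus corn oil, under the 75th percentile scale, normexp, quantile normalization, median centring, spike-in scaling and slide 1 alone. Spike-in scaling lifts every gene, so that Nr1i2 lies at 0.13 and Nfe2l2 at 0.68, while the points of the other 3 scalings lie close to those of the 75th percentile scale.

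The genes these receptors control were read from lists of textbook targets, drawn up with earlier results of these data known. A list's share beside that of all features is therefore a description and no test. Of 25 measured PXR and CAR targets, 6 rose and 3 fell, together 36% beside the 9.36% of all features, with a median of 0.053. With spike-in scaling 14 were called higher and 2 lower, with a median of 0.54. On that scale 12996 of 28995 features were called, 97.6% of them higher, and each list's count below is to be read beside that. Cyp3a9, a P450 of the drug-metabolising 3A family, fell from 3.02, 2.81 and 2.92 in corn oil to 0.85, 1.09 and 0.49 in treated livers, a log2 change of -2.10 (SE 0.17, adjusted p 0.00406). Cyp3a2, a male-predominant drug-oxidising P450, fell from 8.95, 8.64 and 8.73 to 7.31, 6.31 and 7.48 (-1.74, SE 0.31, adjusted p 0.0264). The bile acid and steroid sulfotransferase gene Sult2a6 rose from 4.39, 2.89 and 2.40 to 5.28, 7.07 and 6.24 (2.97, SE 0.64, adjusted p 0.0413), and 2.05 on slide 1 alone. Thus the same list held 2 of its P450s well below every control and a conjugating enzyme above every control.

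Abcb1b, which encodes the drug efflux pump P-glycoprotein, rose from 3.13, 3.25 and 3.19 to 5.34, 4.59 and 4.91 (1.76, SE 0.19, adjusted p 0.00959). Its other 2 probes disagreed on the size, with 3.67 and 4.88, so the mean over probes was 3.44. The other genes of the list that rose were Ces2c, a carboxylesterase (1.65, SE 0.22, adjusted p 0.0148), Abcb1a, a second P-glycoprotein gene (1.21, SE 0.21, adjusted p 0.0257), Ugt2b1, a glucuronosyltransferase (1.18, SE 0.20, adjusted p 0.0236), and Aldh1a1, an aldehyde dehydrogenase (0.83, SE 0.12, adjusted p 0.0168). Marker genes of PXR and CAR activation differed among themselves. Cyp3a23-3a1 had a change of 0.053 (SE 0.10, adjusted p 0.787), Cyp2b1 fell by 0.44 (SE 0.10, adjusted p 0.0439) and Cyp2b2 had a change of 0.47 (SE 0.29, adjusted p 0.353). These 7 genes were picked after their values were seen. Close family members of these P450s, sulfotransferases and transporters may share signal on such probes. The list's 9 calls became 7, 2 and 5 when corn oil replicate 1, 2 or 3 was left out and 5, 3 and 3 when treated replicate 1, 2 or 3 was left out, with 2 on slide 1 alone.

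Of 20 measured FXR targets, 0 rose and 2 fell, a share of 10% that is near the 9.36% of all features. The median was -0.36, and 0.13 with spike-in scaling. There 2 were called higher and 0 lower, beside 12996 of 28995 features called in either direction. Treated animals lay below all controls for 12 of the 20 and above them for 0, beside 16% and 18.4% of all features. The list includes genes of bile acid synthesis such as Cyp7a1, which SHP represses, so its direction is no measure of FXR activity. Fgfr4, the hepatic receptor for the intestinal hormone that represses bile acid synthesis, fell from -0.41, -0.27 and -0.32 to -1.34, -0.89 and -0.91 (-0.72, SE 0.14, adjusted p 0.0346). Slc10a1, the sodium-dependent bile acid uptake carrier NTCP, fell from 6.54, 6.52 and 6.56 to 6.13, 5.99 and 6.19 (-0.44, SE 0.089, adjusted p 0.0361), but was 0.044 with spike-in scaling. Cyp7a1, the rate-limiting enzyme of bile acid synthesis, picked after its values were seen, ranged from -0.997 to -0.26 in corn oil and from -1.83 to 0.98 in treated livers (-0.21, SE 0.73, adjusted p 0.882). The groups of Cyp7a1 overlapped and the treated animals held both its highest and its lowest value. The count of 2 became 0 without corn oil replicate 1 or 2 or treated replicate 2, 1 without any other animal, 0 on slide 1 alone and 6 with normexp.

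Of 16 measured LXR targets, 0 rose and 2 fell, a share of 12.5% beside 9.36% of all features. The median was -0.12, and 0.37 with spike-in scaling. There 4 were called higher and 1 lower, beside 12996 of 28995 features called in either direction. Abcg8, which forms with Abcg5 the transporter that exports sterols into bile, fell from -2.41, -3.01 and -1.90 to -3.68, -4.56 and -4.22 (-1.71, SE 0.34, adjusted p 0.0336), and the change was -1.06 with normexp. Abcg5, picked for being its partner, had 3.31, 2.87 and 3.97 against 2.64, 2.05 and 2.43, a change of -1.01 that did not pass (SE 0.30, adjusted p 0.0893). Both transporter genes had every treated animal below every control. Without corn oil replicate 1 the count was again 2, of which 1 was among these calls, and it was 0 without any other single animal or on slide 1 alone.

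Of 44 measured PPARA targets, 5 rose and 0 fell, a share of 11.4% that is near the 9.36% of all features. The median was -0.012, and 0.47 with spike-in scaling. There 17 were called higher and 0 lower, beside 12996 of 28995 features called, 97.6% of them higher. Acot1, a cytosolic acyl-CoA thioesterase, rose from 1.09, 0.70 and 1.35 to 4.58, 4.38 and 4.28 (3.36, SE 0.18, adjusted p 0.0021). The mitochondrial thioesterase gene Acot2 rose from 4.52, 4.07 and 4.38 to 5.47, 5.54 and 5.43 (1.16, SE 0.13, adjusted p 0.0103). Aqp7, a glycerol channel, rose from -3.37, -3.85 and -4.59 to -0.91, -2.61 and -1.60 (2.23, SE 0.49, adjusted p 0.0441), a value that ran from 1.32 with normexp to 3.02 on slide 1 alone.

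Fads2, a desaturase of polyunsaturated fatty acid synthesis, rose from 2.89, 3.11 and 2.63 to 4.24, 3.81 and 4.04 (1.15, SE 0.16, adjusted p 0.0172). Acaa1b, a thiolase of peroxisomal fatty acid oxidation and the last of the 5 genes, rose from 7.86, 7.45 and 7.39 to 8.57, 8.53 and 8.50 (0.96, SE 0.14, adjusted p 0.0175). Ehhadh, of the same pathway, was higher in every treated animal but did not pass (0.77, SE 0.23, adjusted p 0.0875). Cyp4a1, a fatty acid hydroxylase, had a change of 0.24 (SE 0.15, adjusted p 0.355), and Cpt1a, which admits fatty acids to mitochondria, had 0.48 (SE 0.33, adjusted p 0.395). These 4 genes were picked after their values were seen. Acot1 and Acot2 are near-identical copies, so their probes may share signal. The 5 calls became 7, 3 and 4 when corn oil replicate 1, 2 or 3 was left out and 3, 1 and 2 when treated replicate 1, 2 or 3 was left out, with 0 on slide 1 alone.

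**Figure D5:**
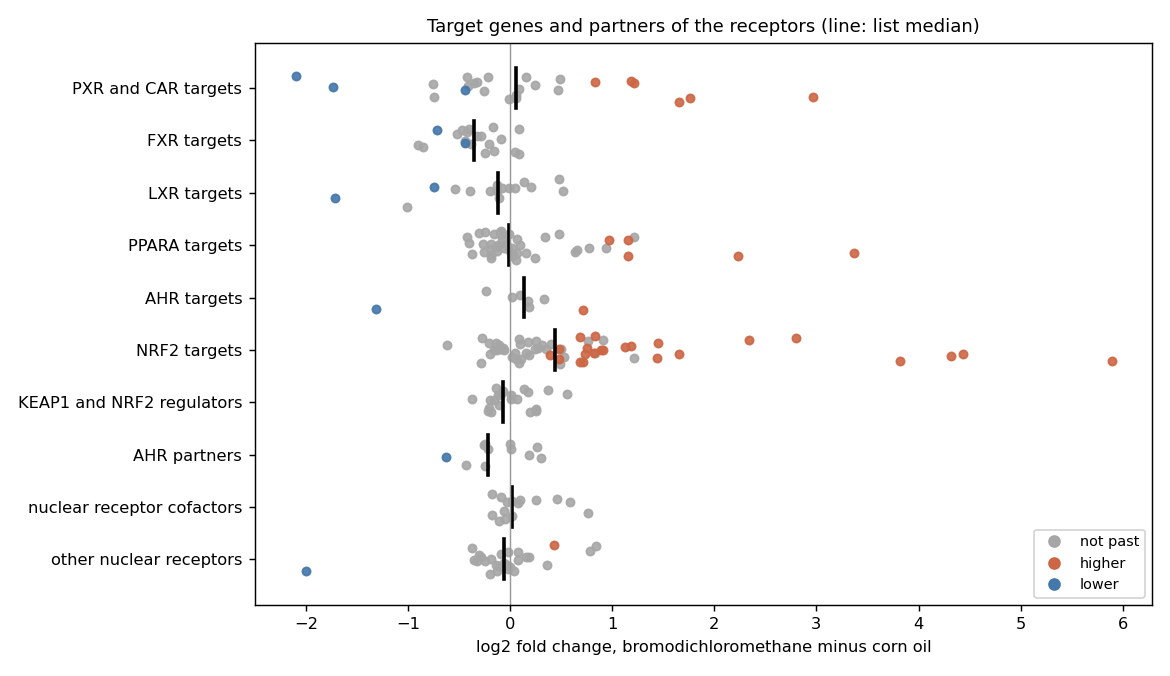
Log2 fold change, bromodichloromethane minus corn oil, of every measured gene in the lists of targets, partners and other nuclear receptors, with the list median as a black line (orange, higher; blue, lower; grey, adjusted p not under 0.05). The NRF2 targets have a median of 0.44, and their rightmost point is Akr1b7, which was well above background on 1 of 3 corn oil arrays and whose position has no exact meaning, while 17 of the 20 FXR targets lie below 0 with a median of -0.36.

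Of 8 measured AHR targets, 1 rose and 1 fell, together 25% of a short list beside 9.36% of all features. With spike-in scaling 5 were called higher and 1 lower, beside 12996 of 28995 features called in either direction. Cyp1a2, the constitutive hepatic member of the Cyp1 family, fell from 5.09, 5.58 and 4.78 to 3.72, 3.82 and 3.96 (-1.31, SE 0.21, adjusted p 0.021), and a second probe gave -1.45. Nqo1, a quinone reductase that AHR shares with NRF2, rose from 1.71, 1.66 and 1.43 to 2.38, 2.06 and 2.51 (0.71, SE 0.15, adjusted p 0.038). A second Nqo1 probe gave 0.74 and did not pass (adjusted p 0.0608 in limma over every probe). Nqo1 passed in 0 of the 6 fits that left out 1 animal. Cyp1a1, Cyp1b1 and Ahrr, direct AHR targets, were not well above background on all arrays of either group and were not tested. The calls became 1 without corn oil replicate 2 or 3 and 0 without any other single animal or on slide 1 alone. Of 11 partners and relatives of AHR, 0 rose and 1 fell, a share of 9.09% that is near the 9.36% of all features. The 1 was Arnt2, which fell from -1.20, -1.08 and -1.51 to -2.05, -1.89 and -1.75 (-0.63, SE 0.14, adjusted p 0.046). That call ended with median centring, normexp, spike-in scaling, no filter and each way of treating slide, and without any single animal except corn oil replicate 3.

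Of 58 measured NRF2 targets, 23 were called higher and 0 lower, a share of 39.7% beside the 9.36% of all features. The list was drawn up with earlier results of these data known, so this comparison is no test. Of the 23, 22 were well above background on all 6 arrays. The 58 had a median of 0.44, with 46 above 0 and 12 below. Treated animals lay above all controls for 32 of the 58 and below for 4, beside 18.4% and 16% of all features. Abcc3, a basolateral exporter of conjugates, rose from -2.87, -3.19 and -2.91 to 1.31, 1.57 and 1.44 (4.43, SE 0.13, adjusted p 0.00052). Akr1b8, an aldo-keto reductase, rose from -1.75, -1.77 and -1.55 to 1.78, 4.21 and 1.89 (4.31, SE 0.64, adjusted p 0.0184), and 3.52 without treated replicate 2. For both genes the treated animals were well clear of the controls, and treated replicate 2 was the highest.

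Gpx2, a glutathione peroxidase, rose from -0.27, -0.95 and -2.50 to 2.00, 3.61 and 2.14 (3.82, SE 0.67, adjusted p 0.026), and 3.19 without corn oil replicate 3. Akr1b7, a further aldo-keto reductase, had -5.75, -6.28 and -2.62 in corn oil and -0.72, 1.19 and 2.55 in treated livers. It was well above background on 1 of the 3 corn oil arrays and entered the test only through the treated group, so no fold change or p is given for it, and it is the 1 call of the 23 with this limit. Gene copies within the Akr1b and glutathione transferase families are alike in sequence, and their probes may share signal.

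The best known NRF2 targets did not move together; these were picked after their values were seen. Gclc and Gclm encode the subunits of the enzyme that starts glutathione synthesis. Gclc changed by 0.11 (SE 0.26, adjusted p 0.832). Gclm had -4.97, -4.30 and -3.81 in corn oil and -4.56, -4.19 and -4.70 in treated livers, with overlapping groups. It was well above background on 2 of the 3 corn oil arrays and entered the test only through the treated group, so no fold change or p is given. Hmox1, heme oxygenase, changed by 0.16 (SE 0.15, adjusted p 0.555) and Txnrd1, thioredoxin reductase, by 0.013 (SE 0.11, adjusted p 0.956). Srxn1, sulfiredoxin, was higher in every treated animal at 2.88, 2.82 and 2.68 against 1.60, 2.48 and 2.01, with a change of 0.76 that did not pass (SE 0.22, adjusted p 0.0866). The 23 calls became 10, 2 and 13 when corn oil replicate 1, 2 or 3 was left out and 9, 2 and 10 when treated replicate 1, 2 or 3 was left out. They were 2 with slide as a fixed block and 42 with spike-in scaling, where 12996 of 28995 features were called, 97.6% of them higher. Of the 4 tested genes that NRF2 and PXR or CAR share in these lists, 3 were called, beside 9.36% of all features. These 3, Ugt2b1, Ces2c and Aldh1a1, are counted in the calls of both lists.

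The antioxidant response element core TGACNNNGC was found, on either strand, in the 250 bases before the start of 8 of the 48 NRF2 targets with a promoter (16.7%, against 10.1% of all promoters). It was in 4 of 17 promoters of targets that rose (23.5%) and in 4 of 29 of targets that did not pass (13.8%). Akr1b10 and Pgd had a promoter but were not tested. The stretches around it are shown for 6 of these 8 genes, to set the letters beside the response. Gstp1, which rose (2.80, SE 0.47, adjusted p 0.0236), and Ugdh, which did not pass (0.27, SE 0.18, adjusted p 0.375), also held a core but their stretches are not shown. For both, and for others of the 48, the start used was not the outer end of the annotated gene. The positions are Gpx2 at chr6:101230034-101230076, minus strand, Gsta3 at chr9:31154942-31154988, plus strand, Me1 at chr8:96540373-96540441, minus strand, Gclm at chr2:213031933-213032001, plus strand, Prdx1 at chr5:135383741-135383809, plus strand and Esd at chr15:56452832-56452889, plus strand, all in GRCr8 from RefSeq. Each runs 5′ to 3′ in the direction of its gene, and capitals mark the core, which reads as its reverse complement in Gpx2, Gclm, Prdx1 and Esd.
Gpx2: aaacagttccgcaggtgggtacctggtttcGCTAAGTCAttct
Gsta3: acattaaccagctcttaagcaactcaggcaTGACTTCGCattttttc
Me1: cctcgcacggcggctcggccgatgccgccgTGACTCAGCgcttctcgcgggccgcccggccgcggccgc
Gclm: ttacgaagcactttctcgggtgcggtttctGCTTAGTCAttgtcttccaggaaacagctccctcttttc
Prdx1: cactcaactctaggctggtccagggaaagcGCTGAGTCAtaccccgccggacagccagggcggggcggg
Esd: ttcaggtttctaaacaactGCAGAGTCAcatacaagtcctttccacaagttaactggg
Beside these letters, Gsta3, a glutathione transferase, rose from 6.51, 6.49 and 6.73 to 7.32, 7.42 and 7.45 (0.82, SE 0.10, adjusted p 0.013). Me1, the malic enzyme that supplies NADPH, rose from 3.33, 3.71 and 3.78 to 4.35, 4.38 and 4.28 (0.73, SE 0.14, adjusted p 0.0296). Prdx1, a peroxiredoxin (-0.28, SE 0.13, adjusted p 0.232), and Esd, an esterase (-0.11, SE 0.10, adjusted p 0.538), carried a core and did not pass. Gclm also carried a core and was not called, with the limit given above. A core in this window was thus present both in genes that rose and in genes that did not. Apart from Gpx2, these genes are outside the rule for named genes and were chosen, for the core in their promoters, after their values were seen.

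Of 21 regulators of KEAP1 and NRF2, 0 passed in limma, beside 9.36% of all features. With trend and robust options 1 passed. With spike-in scaling 7 were called higher, beside 12996 of 28995 features called, with all 21 above 0 and a median of 0.41. Trim21, a ubiquitin ligase, had -3.31, -3.35 and -3.64 against -3.002, -2.61 and -3.04 (0.55, SE 0.16, adjusted p 0.0804). Dcaf11, a substrate adaptor of a ubiquitin ligase, had 4.96, 5.00 and 4.89 against 4.77, 4.53 and 4.44 (-0.37, SE 0.11, adjusted p 0.0897, and 0.11 with spike-in scaling). Cul3, the scaffold on which KEAP1 works, picked after its values were seen, changed by -0.11 (SE 0.11, adjusted p 0.59).

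Of 15 nuclear receptor cofactors measured, 0 passed in limma, beside 9.36% of all features. With normexp, median centring, the stricter filter or trend and robust options 1 passed. With spike-in scaling 6 were called higher, beside 12996 of 28995 features called, with all 15 above 0. Carm1, a coactivating arginine methyltransferase, had -0.54, -0.50 and -0.59 against -0.18, 0.10 and -0.19 (0.46, SE 0.11, adjusted p 0.0531). A second Carm1 probe gave 0.30 (adjusted p 0.171 in limma over every probe). The coactivator Ncoa2 had -3.05, -3.05 and -3.02 against -2.70, -2.56 and -2.09 (0.59, SE 0.16, adjusted p 0.0774). Carm1, on its brightest probe, and Ncoa2 were above every control in every treated animal.

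Other members of the nuclear receptor family give a frame for the 7 receptors here. Of 27 measured, 1 rose and 1 fell, a share of 7.41% that is near the 9.36% of all features. The groups were separate for 4 higher and 4 lower, beside 34.4% of all features. The median was -0.064, and 0.42 with spike-in scaling. There 10 were called higher and 1 lower, beside 12996 of 28995 features called in either direction. The retinoic acid receptor gene Rarg rose from 0.39, 0.56 and 0.42 to 0.88, 0.96 and 0.81 (0.43, SE 0.092, adjusted p 0.0414), and a second probe gave 0.21 (adjusted p 0.286). The count of 2 became 1 without corn oil replicate 1 or treated replicate 1, 0 without any other single animal, and 0 on slide 1 alone. Hnf4a, a master regulator of hepatocyte identity picked after its values were seen, changed by 0.19 (SE 0.13, adjusted p 0.418). The difference between the receptors here and the rest of the family was not tested.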

How the data were processed

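RNA from the livers of 6 separate animals, per the labels, was read on Agilent arrays in the Cy3 colour, and per the submitters' processing notes Agilent Feature Extraction 10.7 measured the spots. The deposited files give a linear intensity for each spot, with background already taken off in the processed signal, per the file headers. The authors' deposited value table is a linear ratio. Judged by its values it divides processed signal by the array's 75th percentile (96.4% to 100% of probes within 1%), without centring, and its column medians are 0.0954 to 0.102. It served as an alternative only.

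After control spots and 27 outlier probes were left out, log2 processed signal minus the array's 75th percentile was compared. A probe had to be well above background on each array of 1 group or both, and the brightest probe stood for a gene or accession. The test was lmFit and eBayes of limma 3.58.1 (R 4.3.3), two-sided, with Benjamini-Hochberg adjustment over 28995 features. The method was first tested on simulated data. Unversioned accessions gave 27460 of 61657 probes (44.5%) 1 symbol and 34197 none, through the RefSeq table of GRCr8. The arrays' own build in the headers is an older one, so no array coordinates are given.

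The members and the gene lists were chosen with earlier results of these data known. Named genes were all members, up to 4 called genes per list with the largest change (or the 2 smallest p where none passed), and the 3 genes most like a called member. Others are said to be chosen after their values were seen. Some genes that the rule names are not reported here. The 20 alternatives covered background correction, scaling, filters, probe choice, eBayes options, the value table, slide, replicate number and each animal left out. Normexp used median signals, the ones the files hold, in place of the mean signals planned, with an offset of 50. Spike-in scaling used 8 of 10 spike-in probes.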

Additional observations from a re-analysis of the deposited data

How the results depend on the processing

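Of 28995 features, 2715 passed, and the count was 12996 with spike-in scaling, 609 with no filter on dim probes, 350 with slide as a fixed block and 120 on slide 1 alone. Leaving out 1 animal gave 335 (without treated replicate 2) to 1232 features (without corn oil replicate 1), and 0 to 1 of the 10 genes. The 1 gene that passed became 2 with quantile normalization, 2 with spike-in scaling, 3 with trend and robust options (Nr1i2, Nr1h3 and Rxra), and 0 with no filter, slide as a fixed block or slide 1 alone. Without corn oil replicate 1 the gene past the threshold was Nr0b2 and not Rxra. With the replicate number as a block, 353 features and 0 of the 10 genes passed (Rxra -0.51, adjusted p 0.077). Same-numbered animals' deviations correlated at 0.0921, 0.0187 and 0.117, so the numbers were not taken as pairs, although each animal correlated best with its own number. With spike-in scaling the sign turned for Nr1i2 (0.13), Nr1h4 (0.42), Nr1h3 (0.14), Nr0b2 (0.060), Ahr (0.29), Keap1 (0.44), Slc10a1 (0.044) and Dcaf11 (0.11). It also turned for Nr1h4 with normexp (0.029), Keap1 with median centring (0.0086), and, on slide 1 alone, Ppara (-0.073) and Keap1 (0.12). Slide as a fixed block gives the slide 1 estimate by design, since slide 2 holds no control. With 1 animal left out, Nr1h4 ran from -0.23 to 0.090, Ppara from -0.18 to 0.79, Ahr from -0.36 to 0.10 and Keap1 from -0.13 to 0.017, so each turned sign. Nr1i3, Nfe2l2 and Rxra kept their sign under all 20 alternatives. The share of called features that were higher was 63.6%, 74.2% with median centring and 97.6% with spike-in scaling. Of the 21 other named genes that passed, 4 (Abcc3, Acot1, Abcb1b and Cyp3a9) passed in all 6 fits that left out 1 animal. The cause was not tested. With 3 animals a group and 1 treated animal on the controls' slide, slide and treatment are only partly separable, and changes of the size of the members' intervals could not be resolved.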
